A study of Mus musculus with 9 samples.

Results

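The genes described here are those of Wnt signalling at the level of ligand, receptor, secreted modulator and core effector. They were taken from the array's probe annotation by symbol: every gene named Wnt, Fzd, Sfrp or Dkk followed by a digit, together with Lrp5, Lrp6, Ror1, Ror2, Axin1, Axin2, Tcf7, Tcf7l1, Tcf7l2, Lef1, Ctnnb1 and Wif1. This gave 49 of the 19858 genes that had a probe set with a single gene symbol, and 38 of the 49 were bright enough to be tested. Of the genes the rule names, Tcf7 was not listed in the annotation. The symbol rule also took in Fzd10os, an opposite-strand transcript at Fzd10, which was too dim to be tested.

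The data are 9 Affymetrix expression arrays, 1 for each of 9 primary cultures. The cells came from interscapular brown fat of male C57BL/6 mice, 5 weeks of age, filtered to enrich precursors and differentiated with insulin. Control cultures 1 to 3 received the vehicle DMSO, cultures 4 to 6 the autotaxin inhibitor HA155 at 2.5 µM, and cultures 7 to 9 lysophosphatidic acid (LPA), the product of autotaxin, at 5 µM. The sample labels place the treatment at 9 days in vitro and the design text places it during differentiation, which leaves the duration of exposure uncertain. The sample titles give each culture its own subject number, 1 to 9, but do not say which animals a subject stands for. The p-values therefore describe the variation among these particular cultures. With 3 arrays a group, precision is limited.

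Wnt proteins are secreted lipid-modified ligands that bind Frizzled receptors. With the co-receptors Lrp5 or Lrp6 they stabilise β-catenin, which then works with Tcf/Lef factors in the nucleus, and with Ror receptors they signal without it. Secreted Frizzled-related proteins (Sfrp), Dickkopf proteins (Dkk) and Wif1 act outside the cell and mostly hold ligand or co-receptor back. In fat, β-catenin signalling is known to hold precursors in the undifferentiated state, and Wnt10b is the ligand best known for this.

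Promoter windows are printed for 4 genes on which the results turn. Fzd1, Sfrp2 and Wnt16 were the most changed receptor, modulator and ligand among members for which a window was at hand. The modulators Sfrp1 and Dkk3 changed more than Sfrp2, but no window was at hand for them. The last gene, Axin2, is a feedback target of β-catenin that was not called in any comparison. Each is the 250 bases just before the RefSeq start of the gene in build GRCm38.p6, written 5′ to 3′ on the gene's own strand. Fzd1 lies at chr5:4758217-4758466 on the minus strand, Sfrp2 at chr3:83766071-83766320, Wnt16 at chr6:22287977-22288226 and Axin2 at chr11:108920099-108920348, these 3 on the plus strand. Capitals mark the TCF/LEF core, CTTTGA or its reverse complement TCAAAG.
Fzd1: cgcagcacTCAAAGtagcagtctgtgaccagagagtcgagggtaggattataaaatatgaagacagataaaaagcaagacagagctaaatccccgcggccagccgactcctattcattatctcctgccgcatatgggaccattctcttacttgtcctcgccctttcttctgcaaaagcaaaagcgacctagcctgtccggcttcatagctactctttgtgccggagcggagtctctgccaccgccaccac
Sfrp2: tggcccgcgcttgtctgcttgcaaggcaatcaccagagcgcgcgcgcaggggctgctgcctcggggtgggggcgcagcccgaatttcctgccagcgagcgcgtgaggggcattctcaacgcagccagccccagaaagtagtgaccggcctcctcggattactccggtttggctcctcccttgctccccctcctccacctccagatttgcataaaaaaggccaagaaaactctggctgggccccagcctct
Wnt16: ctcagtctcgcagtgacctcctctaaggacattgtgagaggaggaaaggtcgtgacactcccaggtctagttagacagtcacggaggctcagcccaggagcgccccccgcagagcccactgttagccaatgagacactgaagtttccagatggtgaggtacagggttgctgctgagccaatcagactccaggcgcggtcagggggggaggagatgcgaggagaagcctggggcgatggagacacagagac
Axin2: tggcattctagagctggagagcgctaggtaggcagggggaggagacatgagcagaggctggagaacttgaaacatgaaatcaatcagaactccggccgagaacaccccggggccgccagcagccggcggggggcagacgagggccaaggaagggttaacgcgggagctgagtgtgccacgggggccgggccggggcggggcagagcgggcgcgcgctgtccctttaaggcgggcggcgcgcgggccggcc
The core occurred once in the Fzd1 window, 242 to 237 bases before the start, and these letters were not in the other windows printed. It was present on either strand in 13.8% of all 32851 RefSeq windows of that length. Of the 49 members 33 had a window, and 6 of these held the core: Fzd1, Ror1, Wnt5b, Wnt11, Dkk1 and Lef1. Of the members that rose with LPA 6 had a window, and 2 of them, Fzd1 and Ror1, held it. A TEAD core (GGAATG, either strand) was in no member's window against 12.6% of all windows. The AP-1 site TGANTCA, searched on either strand, was in the windows of 2 of the 33 members, against 6.75% of all windows. The GC box GGGCGG, on either strand, was in those of 27 of the 33, a larger share than the 32.7% of all windows. Of the 6 members with a window that rose with LPA, 3 held the GC box and 0 the AP-1 site. Members were counted by gene but all windows singly, and the 32851 windows belong to 27025 genes. The shares set side by side therefore use unlike units. CTTTGA and TGANTCA can overlap at TGA, and a match is a description of the sequence only.

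LPA raised 13 of the 38 tested members and lowered none. Values below are log2 intensities unless they are called differences, and a difference is the mean of 3 LPA arrays minus the mean of 3 control arrays with its standard error (SE). A gene was called when limma's p-value, adjusted by Benjamini-Hochberg over all 13335 genes tested, was below 0.05. The members that rose were 34.2% of those tested, while 12.2% of all genes rose. None of the members fell, against 10.8% of all genes. All 16 tested adipocyte markers fell in the same cultures, and in bulk RNA fewer cells of a type and less RNA per cell cannot be told apart. The median difference of the 38 members was 0.15 and that of all genes tested was 0.01. At an unadjusted p below 0.05 there were 16 members, of either direction, where 34.3% of all genes passed that level. Every LPA array lay above every control array for 17 members, which is 44.7% of those tested against 17.5% of all genes. The reverse held for 2 members, Fzd3 and Wnt7b, or 5.26% against 15.6% of all genes.

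**Figure D1:**
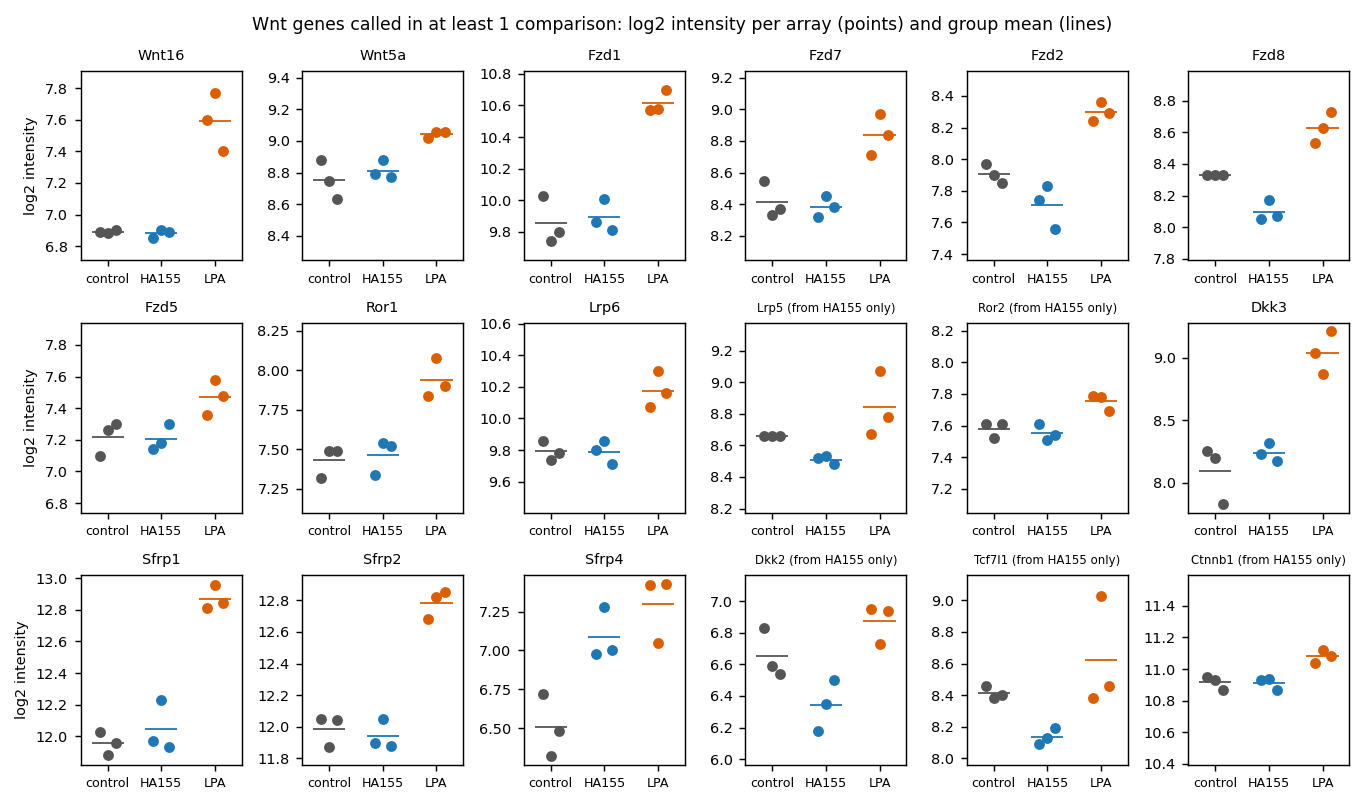
Log2 intensity (vertical axis) of the 18 members called in at least 1 comparison, a panel each, in the control, HA155 and LPA cultures; points are single arrays, lines are group means, the vertical range differs between panels, and "from HA155 only" marks genes not called against control. For Dkk3, Sfrp1, Sfrp2, Fzd1 and Wnt16 the 3 LPA points sit above all control and HA155 points, while for Sfrp4 the HA155 points overlap the LPA points.

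The secreted modulators held the largest changes, and 4 of 7 tested rose, or 57.1% against 12.2% of all genes. Sfrp1, which binds Wnt ligands outside the cell, read 12.03, 11.88 and 11.96 in control, 11.97, 12.23 and 11.93 with HA155, and 12.81, 12.96 and 12.84 with LPA. Every LPA culture lay above every other culture, and the HA155 cultures spread around the control level. The difference between LPA and control was 0.91 (SE 0.09, 95% interval 0.72 to 1.1), or 1.88-fold, with a limma adjusted p of 2.37e-05. Its relative Sfrp2 read 12.05, 11.87 and 12.04 in control, 11.9, 12.05 and 11.88 with HA155, and 12.68, 12.82 and 12.85 with LPA. Control and HA155 overlapped fully and the LPA cultures stood apart from both. That difference was 0.79 (SE 0.08, interval 0.62 to 0.96; 1.73-fold, limma adjusted p = 2.85e-05).

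Dkk3, a divergent Dickkopf protein whose effect on Wnt signalling is less settled than that of the others, changed most of all members. It read 8.25, 8.2 and 7.83 in control, 8.23, 8.32 and 8.17 with HA155, and 9.04, 8.87 and 9.21 with LPA. Control culture 3 was the lowest, and no LPA culture overlapped the others. Its difference of 0.94 (SE 0.12, interval 0.69 to 1.2) was 1.92-fold, with a limma adjusted p of 1.39e-04.

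Sfrp4 is another ligand-binding modulator. Its values were 6.72, 6.32 and 6.48 in control, 6.98, 7.28 and 7 with HA155, and 7.42, 7.05 and 7.43 with LPA. Both treated groups lay wholly above control and overlapped each other. LPA minus control was 0.79 (SE 0.13, limma adjusted p = 9.96e-04) and LPA minus HA155 was 0.21 (interval -0.07 to 0.5, adjusted p = 0.273). Dkk2, which binds the Lrp co-receptors, was not called against control at 0.22 (interval -0.01 to 0.45, adjusted p = 0.158). Sfrp5 differed from control by 0.04 and Dkk4 by -0.25 (adjusted p of 0.702 and 0.277). Dkk1 and Wif1, a co-receptor antagonist and a ligand-binding one, were below the intensity filter on the mean of all arrays.

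Of the 8 tested Frizzled receptors 5 rose with LPA, or 62.5% against 12.2% of all genes. Fzd1 read 10.03, 9.74 and 9.8 in control, 9.86, 10.01 and 9.81 with HA155, and 10.57, 10.58 and 10.7 with LPA. The lowest LPA culture was above the highest of the other 6. Its difference was 0.76 (SE 0.09, interval 0.57 to 0.95), or 1.69-fold, with a limma adjusted p of 8.40e-05. Fzd7 read 8.55, 8.33 and 8.37 in control, 8.32, 8.45 and 8.38 with HA155, and 8.71, 8.97 and 8.84 with LPA, a difference from control of 0.43 (SE 0.08, adjusted p = 0.00310). Fzd2 read 7.97, 7.9 and 7.85 in control, 7.74, 7.83 and 7.56 with HA155, and 8.24, 8.36 and 8.29 with LPA, a difference of 0.39 (SE 0.08, adjusted p = 0.00325). For both, LPA did not overlap control, and for Fzd2 the HA155 cultures lay below all controls.

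Fzd8 had the same deposited value, 8.33, on all 3 control arrays, 8.05, 8.17 and 8.07 with HA155, and 8.53, 8.63 and 8.73 with LPA. The 3 groups did not overlap. LPA minus control was 0.3 (SE 0.06, limma adjusted p = 0.00623), and this error rests on a control spread that the identical values understate. Fzd5 read 7.1, 7.26 and 7.3 in control, 7.14, 7.18 and 7.3 with HA155, and 7.36, 7.58 and 7.48 with LPA, a difference of 0.25 (SE 0.08, adjusted p = 0.0381). The LPA cultures were the highest, by a narrow margin over control culture 3. The Fzd5 call was lost without control culture 1 (0.19, adjusted p = 0.124), control culture 2 (0.27, 0.0696), HA155 culture 4 (0.25, 0.0554), HA155 culture 5 (0.25, 0.0588), LPA culture 8 (0.2, 0.102) or LPA culture 9 (0.25, 0.0803).

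The other tested Frizzled genes were not called: Fzd4 differed from control by 0.11 (interval -0.06 to 0.29), Fzd9 by -0.02 (-0.22 to 0.18) and Fzd3 by -0.11 (-0.27 to 0.04). Fzd4 was brightly measured on every array, between 10.24 and 10.58. Fzd6 and Fzd10 were below the filter, each at or above it on 1 array.

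All 4 co-receptors were tested and 2 rose, or 50.0% against 12.2% of all genes. These were 1 of the Ror family and 1 of the Lrp family. Ror1, a receptor for Wnt5a, read 7.32, 7.49 and 7.49 in control, 7.34, 7.54 and 7.52 with HA155, and 7.84, 8.08 and 7.9 with LPA. The LPA cultures were all above the other 6, and the difference from control was 0.5 (SE 0.08, interval 0.32 to 0.69; 1.42-fold, limma adjusted p = 0.00112). Lrp6, which carries the signal from Frizzled to β-catenin, read 9.86, 9.74 and 9.78 in control, 9.8, 9.86 and 9.71 with HA155, and 10.07, 10.3 and 10.16 with LPA. Again no LPA culture overlapped the others, with a difference of 0.38 (SE 0.07, interval 0.22 to 0.54; 1.30-fold, adjusted p = 0.00271). Their relatives Lrp5 and Ror2 were not called against control, at 0.18 (interval -0.02 to 0.37, adjusted p = 0.187) and 0.17 (interval 0.04 to 0.3, adjusted p = 0.0618). Lrp5 passed without LPA culture 7 (0.26, adjusted p = 0.0492) and Ror2 without LPA culture 9 (0.21, 0.0387).

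Among the ligands 2 of 14 tested rose, or 14.3%, near the 12.2% of all genes. Wnt16 read 6.89, 6.88 and 6.9 in control, 6.85, 6.9 and 6.89 with HA155, and 7.6, 7.77 and 7.4 with LPA. The 6 control and HA155 cultures were nearly the same and each LPA culture was clear of them. The difference of 0.7 (SE 0.08, interval 0.51 to 0.88) was 1.62-fold, with a limma adjusted p of 1.11e-04. Wnt5a, the ligand of the Ror pathway, read 8.88, 8.75 and 8.63 in control, 8.79, 8.88 and 8.77 with HA155, and 9.02, 9.06 and 9.06 with LPA. Its LPA values were close together and above the rest, at a difference of 0.29 (SE 0.07, interval 0.14 to 0.44; 1.22-fold, adjusted p = 0.0110).

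The 12 other tested ligands were not called, and their 95% intervals together ran from -0.46 to 0.3. Wnt10b, the anti-adipogenic ligand, read 6.33, 6.65 and 6.64 in control, 6.4, 6.38 and 6.4 with HA155, and 6.66, 6.4 and 6.17 with LPA. The LPA cultures spanned the control range, and the difference was -0.12 (interval -0.39 to 0.14, limma adjusted p = 0.506). Its family member Wnt10a and the neighbouring gene Wnt6 both differed by -0.07. Wnt4 differed by 0.06, Wnt5b by less than 0.01 in size and Wnt9a by 0.08. Wnt2 differed by -0.11, Wnt2b by -0.04, Wnt7b by -0.05 and Wnt9b by -0.11, none of them called. Wnt11 had the same value, 6.26, on all 3 LPA arrays and differed by -0.13. Wnt3a, a classical activator of β-catenin, read 5.84, 6.13 and 6.17 in control, 5.86 on each HA155 array, and 5.86, 5.66 and 5.85 with LPA. Control culture 1 sat with the treated cultures; the difference was -0.26 (interval -0.46 to -0.06, adjusted p = 0.0645), and without that culture -0.36 (adjusted p = 0.00699). Control culture 1 was also the lowest control for Wnt2, Wnt4, Wnt6, Wnt9a, Wnt9b, Wnt10a and Wnt10b. Wnt1, Wnt3, Wnt7a, Wnt8a and Wnt8b were below the filter.

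In RefSeq's gene order 4 pairs of ligand genes are direct neighbours: Wnt6 and Wnt10a, Wnt3a and Wnt9a, Wnt9b and Wnt3, and Wnt10b and Wnt1. Of these genes Wnt1 and Wnt3 were below the filter and not tested. None of the others was called in any comparison, where with LPA 12.2% of all genes were higher than control and 10.8% lower. With so few genes, the absence of calls says little about the pairs. Only Wnt4 had more than 1 probe set; the dimmer one read 5.94 to 6.28 in control and 6.02 to 6.06 with LPA.

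None of the 5 tested intracellular effectors was called against control, where 12.2% of all genes were higher and 10.8% lower. Ctnnb1, which encodes β-catenin, read 10.95, 10.93 and 10.87 in control, 10.93, 10.94 and 10.87 with HA155, and 11.04, 11.12 and 11.08 with LPA. The LPA cultures were all higher, at a difference of 0.16 (SE 0.06, interval 0.04 to 0.28, limma adjusted p = 0.0599) that missed the threshold. Ctnnb1 passed with the 60th percentile filter (adjusted p = 0.0416), an offset of 16 (0.0451) and limma-trend with robust eBayes (0.0389), so it lies near the threshold. Axin2, the scaffold protein whose transcription β-catenin drives as feedback, read 5.83, 6.05 and 6.05 in control, 6.05, 6.05 and 6.09 with HA155, and 6.05, 6.05 and 6.09 with LPA. Apart from the lower control culture 1 the 3 groups coincided, and the difference was 0.09 (interval -0.06 to 0.24, adjusted p = 0.408). The Axin2 values lay near the filter of 5.59, where levels are close to background, so a small change could be missed. Axin1 differed by 0.13 (adjusted p = 0.248). The nuclear factor genes Tcf7l1 and Tcf7l2 differed by 0.2 and 0.16 (adjusted p of 0.325 and 0.319), and for Tcf7l2 the value of LPA culture 8, 9.33, stood above 8.86 and 8.88 in the other LPA cultures. Lef1 was below the filter on every array.

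**Figure D2:**
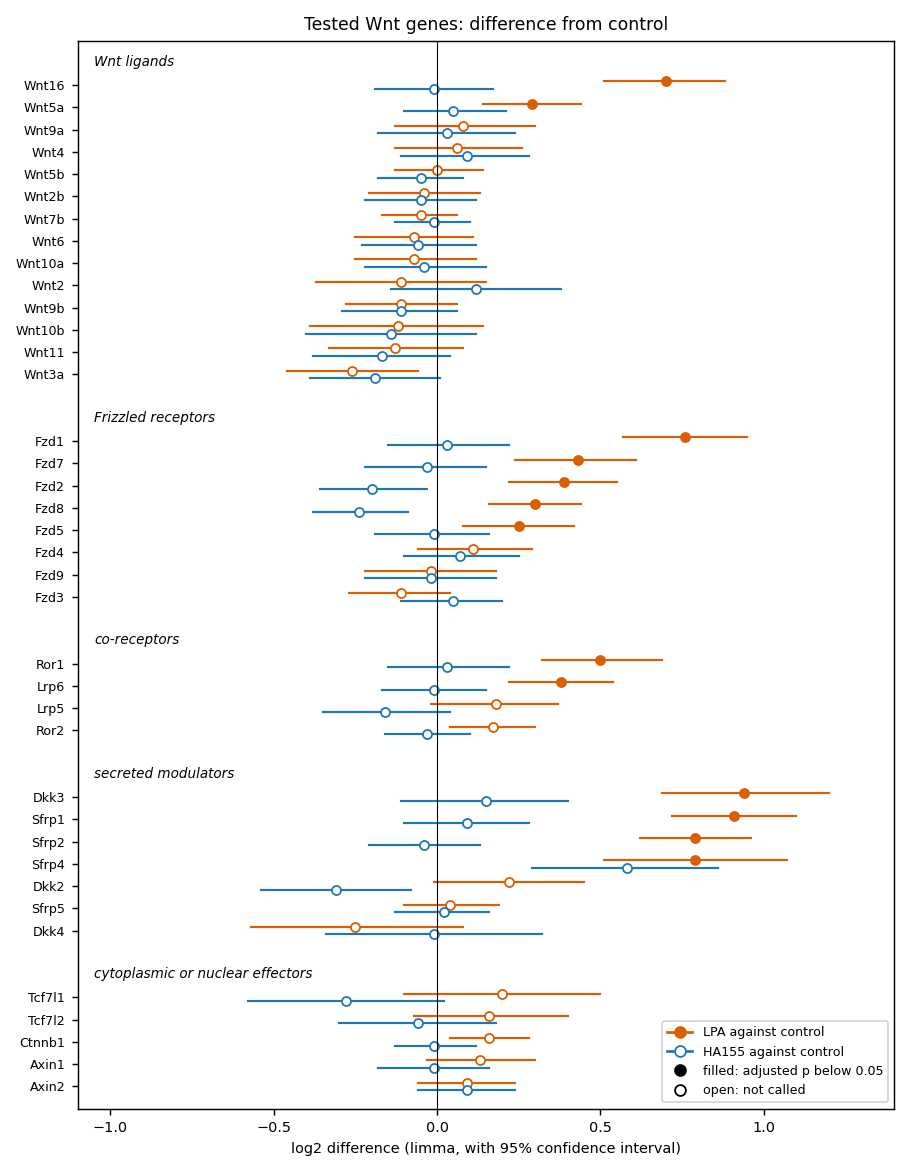
Log2 difference with its 95% interval (horizontal axis) for the 38 tested members, grouped by role, for LPA against control and HA155 against control; filled points passed the limma threshold. All filled points lie right of 0 and belong to LPA, from 0.25 for Fzd5 to 0.94 for Dkk3, and the points of the effectors are all open.

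HA155 at 2.5 µM changed none of the 38 members by the limma threshold, where 0.607% of all genes were called higher and 0.427% lower. At an unadjusted p below 0.05 there were 4 members, where 8.11% of all genes passed that level: Sfrp4, Dkk2, Fzd8 and Fzd2. The median difference of the members was -0.01, and 33 of 38 differed by less than 0.2 in size once rounded as printed here. Their 95% intervals together ran from -0.58 to 0.86. The smallest adjusted p, 0.0758, belonged to Sfrp4, at a difference of 0.58 (SE 0.13, interval 0.29 to 0.86) in the same direction as with LPA. Fzd8 differed by -0.24 (interval -0.38 to -0.09, adjusted p = 0.197), Fzd2 by -0.2 (-0.36 to -0.03, 0.470) and Dkk2 by -0.31 (-0.54 to -0.08, 0.344). In these 3 receptor and modulator genes the inhibitor cultures lay below every control culture, as they did for Tcf7l1 and Lrp5. The share of all genes separated in this way was not counted for HA155, so this describes single genes only. Without LPA culture 8, which shares in the estimate of the spread, Sfrp4 (0.58, adjusted p = 0.0295) and Tcf7l1 (-0.28, 0.0296) passed, so these genes lie near the threshold.

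Directly compared with HA155 cultures, LPA cultures had 17 members higher and none lower, or 44.7% of those tested against 13.7% of all genes higher and 12.4% lower. Both comparisons of LPA share the LPA arrays, so they are not independent. Sfrp4 was not called here. The differences from HA155 were 0.84 (SE 0.08) for Sfrp2, 0.83 (0.09) for Sfrp1, 0.8 (0.12) for Dkk3, 0.72 (0.09) for Fzd1 and 0.71 (0.08) for Wnt16. Fzd2 and Fzd8, at 0.58 and 0.53 (adjusted p of 1.69e-04 and 1.10e-04), were further from HA155 than from control. Fzd7, Ror1 and Lrp6 differed from HA155 by 0.46, 0.47 and 0.39.

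A further 5 members were higher than HA155 without being called against control. Dkk2 read 6.83, 6.59 and 6.54 in control, 6.18, 6.35 and 6.5 with HA155, and 6.95, 6.73 and 6.94 with LPA; the HA155 cultures were lowest, and LPA minus HA155 was 0.53 (SE 0.1, limma adjusted p = 0.00264). Tcf7l1, a Tcf factor best known as a repressor, read 8.46, 8.38 and 8.4 in control, 8.09, 8.13 and 8.19 with HA155, and 8.38, 9.03 and 8.46 with LPA. Its difference of 0.48 (SE 0.14, adjusted p = 0.0217) leaned on LPA culture 8, without which it was 0.28 (adjusted p = 0.00571), and the call was lost without HA155 culture 4 (0.46, 0.0778), 5 (0.48, 0.0611) or 6 (0.51, 0.0519).

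Lrp5 read 8.66 in each control, 8.52, 8.53 and 8.48 with HA155, and 8.67, 9.07 and 8.78 with LPA, a difference from HA155 of 0.33 (SE 0.09, limma adjusted p = 0.0163). The control arrays share in this error, and their nearly identical Lrp5 values may understate the spread, as for Fzd8. LPA culture 8 was again the highest; without it the difference was 0.22 (adjusted p = 0.0150), and without HA155 culture 6 the call was lost (0.32, 0.0632). Ror2 read 7.61, 7.52 and 7.61 in control, 7.61, 7.51 and 7.54 with HA155, and 7.79, 7.78 and 7.69 with LPA, a difference of 0.2 (SE 0.06, adjusted p = 0.0298). Ctnnb1 differed by 0.17 (SE 0.06, adjusted p = 0.0469). These were small differences with no overlap between the groups. The Ror2 call was lost without HA155 culture 5 or 6 or LPA culture 7 or 8 (0.18 to 0.19, adjusted p of 0.114, 0.0958, 0.0762 and 0.0556), and that of Ctnnb1 without any 1 culture except LPA culture 7 (0.14 to 0.18, adjusted p from 0.0511 to 0.172). Wnt5a and Fzd5, higher than HA155 by 0.23 and 0.27 (adjusted p of 0.0281 and 0.0266), lost this call as well: Wnt5a without HA155 culture 4 or 6 or LPA culture 8 or 9 (0.21 to 0.23, adjusted p from 0.0548 to 0.108), and Fzd5 without HA155 culture 4 or 5 or LPA culture 8 or 9 (0.21 to 0.26, adjusted p from 0.0596 to 0.108). Centring each array on its median also ended the calls of Ctnnb1 (0.14, adjusted p = 0.104), Ror2 (0.18, 0.0550) and Wnt5a (0.21, 0.0513), and fitting only the arrays compared ended that of Tcf7l1 (0.48, 0.0641).

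Across arrays the shift of the members was alike but not equal within the LPA group. The median difference of the 38 members from the control mean was 0.1, 0.18 and 0.09 on LPA arrays 7, 8 and 9, and -0.03, -0.01 and -0.04 on HA155 arrays 4, 5 and 6. LPA array 8 was counted as the highest of its group in 18 of 38 members, and control array 1 and HA155 array 5 in 20 each. A tie was given to the first array holding it. The count of control array 1 includes such ties, Fzd8, Ror2 and Sfrp5 among them, so it cannot be ranked against that of LPA array 8. The median intensity of an array over all probe sets was between 70.7 and 72.8.

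**Figure D3:**
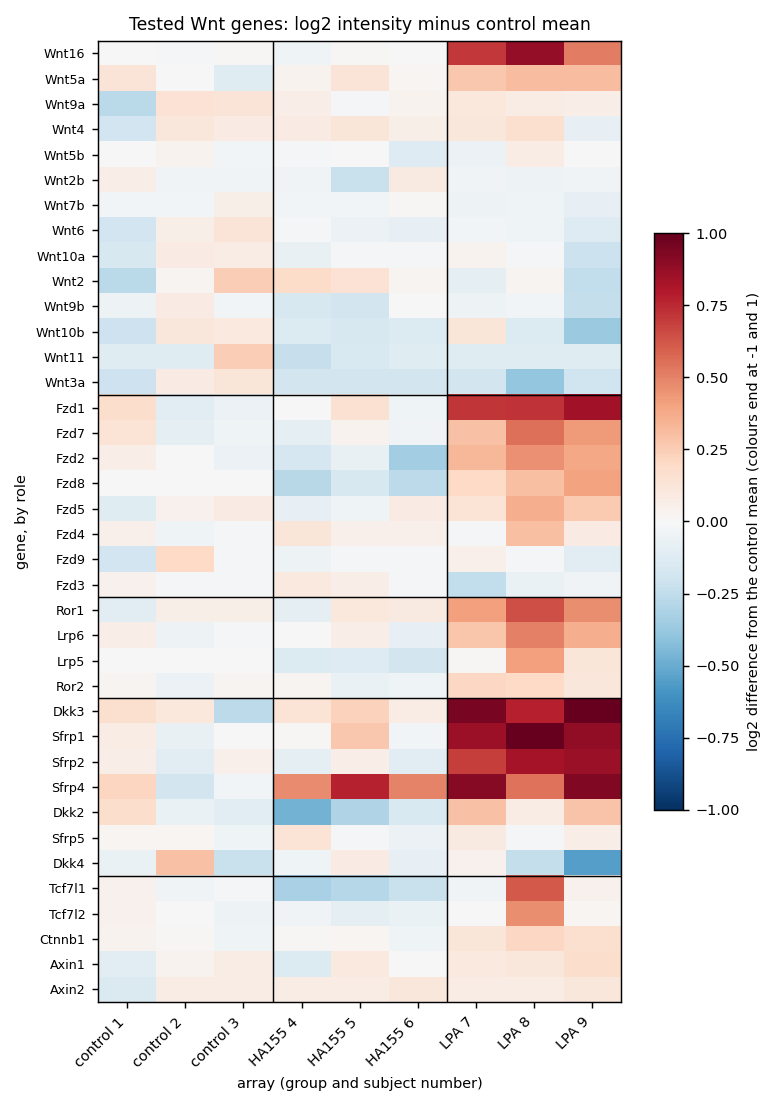
Difference of each array from the gene's control mean (colour, log2 scale) for the 38 tested members in rows, grouped by role, and the 9 arrays in columns. The 3 LPA columns are raised in Dkk3, Sfrp1, Sfrp2, Sfrp4, Fzd1 and Wnt16, all 3 HA155 columns are raised in Sfrp4, and LPA array 8 is the highest for Tcf7l1, Tcf7l2 and Lrp5.

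Other parts of the Wnt pathway were read from a list of 68 genes for secretion, R-spondins, the destruction complex, cytoplasmic adaptors, co-repressors and planar polarity, 63 of which were tested. With LPA 14 rose and 3 fell, or 22.2% and 4.76% against 12.2% and 10.8% of all genes, with a median difference of 0.07. With HA155 none was called, against 0.607% of all genes higher and 0.427% lower. Dact1, a cytoplasmic adaptor of Dishevelled, read 6.87, 6.79 and 6.72 in control and 7.77, 8.16 and 7.79 with LPA, the largest change in this list at 1.11 (SE 0.11, limma adjusted p = 2.76e-05). Wls, the carrier that brings Wnt ligands to the cell surface, read 9.51, 9.4 and 9.58 in control and 9.97, 9.97 and 9.89 with LPA, a rise of 0.45 (SE 0.06, adjusted p = 4.65e-04). Neither gene's LPA values overlapped control. The pseudokinase receptor gene Ptk7 rose by 0.49, the glypican Gpc3 by 0.43, the planar polarity gene Prickle2 by 0.33 and the co-repressor Tle2 by 0.5. Rspo2, an agonist that raises Frizzled at the cell surface, rose by 0.4, and the secreted antagonist Frzb by 0.38. Musk, a receptor kinase of the neuromuscular junction with a Frizzled-like domain, rose by 0.38. The 3 that fell were Apcdd1, a membrane inhibitor of Wnt signalling (-0.44), the kinase Nlk (-0.35) and Amer1, a scaffold of the destruction complex (-0.24). Lgr5, Rnf43, Sostdc1 and Celsr3 were below the filter.

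Genes commonly named as β-catenin targets were read from a list of 32, of which 24 were tested and 3 (Axin2, Lef1 and Dkk1) are members described above. With LPA 10 rose and 2 fell, or 41.7% and 8.33% against the same 12.2% and 10.8%, with a median difference of 0.14; the share that fell was near that of all genes. With HA155 none was called, beside the same 0.607% and 0.427%. Ccn5, a matricellular protein gene, read 9.44, 9.21 and 9.34 in control and 10.2, 9.95 and 10.18 with LPA, a difference of 0.78 (SE 0.09, limma adjusted p = 1.10e-04) with no overlap. The helix-loop-helix inhibitor Id2 rose by 0.76, Ccn4 by 0.58, Jun by 0.46, Cd44 by 0.42, cyclin D1 (Ccnd1) by 0.42, Sox9 by 0.37, Twist1 by 0.32, Myc by 0.28 and Bmp4 by 0.18. Vegfa (-0.18) and Apcdd1 (-0.44) fell. These genes answer to many signals besides β-catenin. Apcdd1 encodes an inhibitor of the pathway. Among the genes of the list that were not called were Axin2 at 0.09, Nkd1 at 0.07, Notum at 0.01, Tnfrsf19 at -0.04 and Sp5 at -0.08, and Znrf3, which encodes a ligase that removes Frizzled from the cell surface, differed by less than 0.01 in size. Axin2, Notum, Tnfrsf19 and Sp5 read 5.42 to 6.09 over all arrays, near the filter of 5.59, so small changes in them could be missed. Lef1, Rnf43, Lgr5, Msx2 and Dkk1 were below the filter. Nr2f2, also not called, read 8.17, 8.15 and 8.18 in control and 8.26, 8.61 and 8.35 with LPA. Fgf18, likewise uncalled, read 7.36, 7.38 and 7.38 in control and 7.61, 7.53 and 7.47 with LPA. For both, every LPA array lay above every control array, as for 17.5% of all genes. In the other uncalled targets tested the LPA and control arrays overlapped. The 2 lists share 6 genes, Apcdd1 among them.

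**Figure D4:**
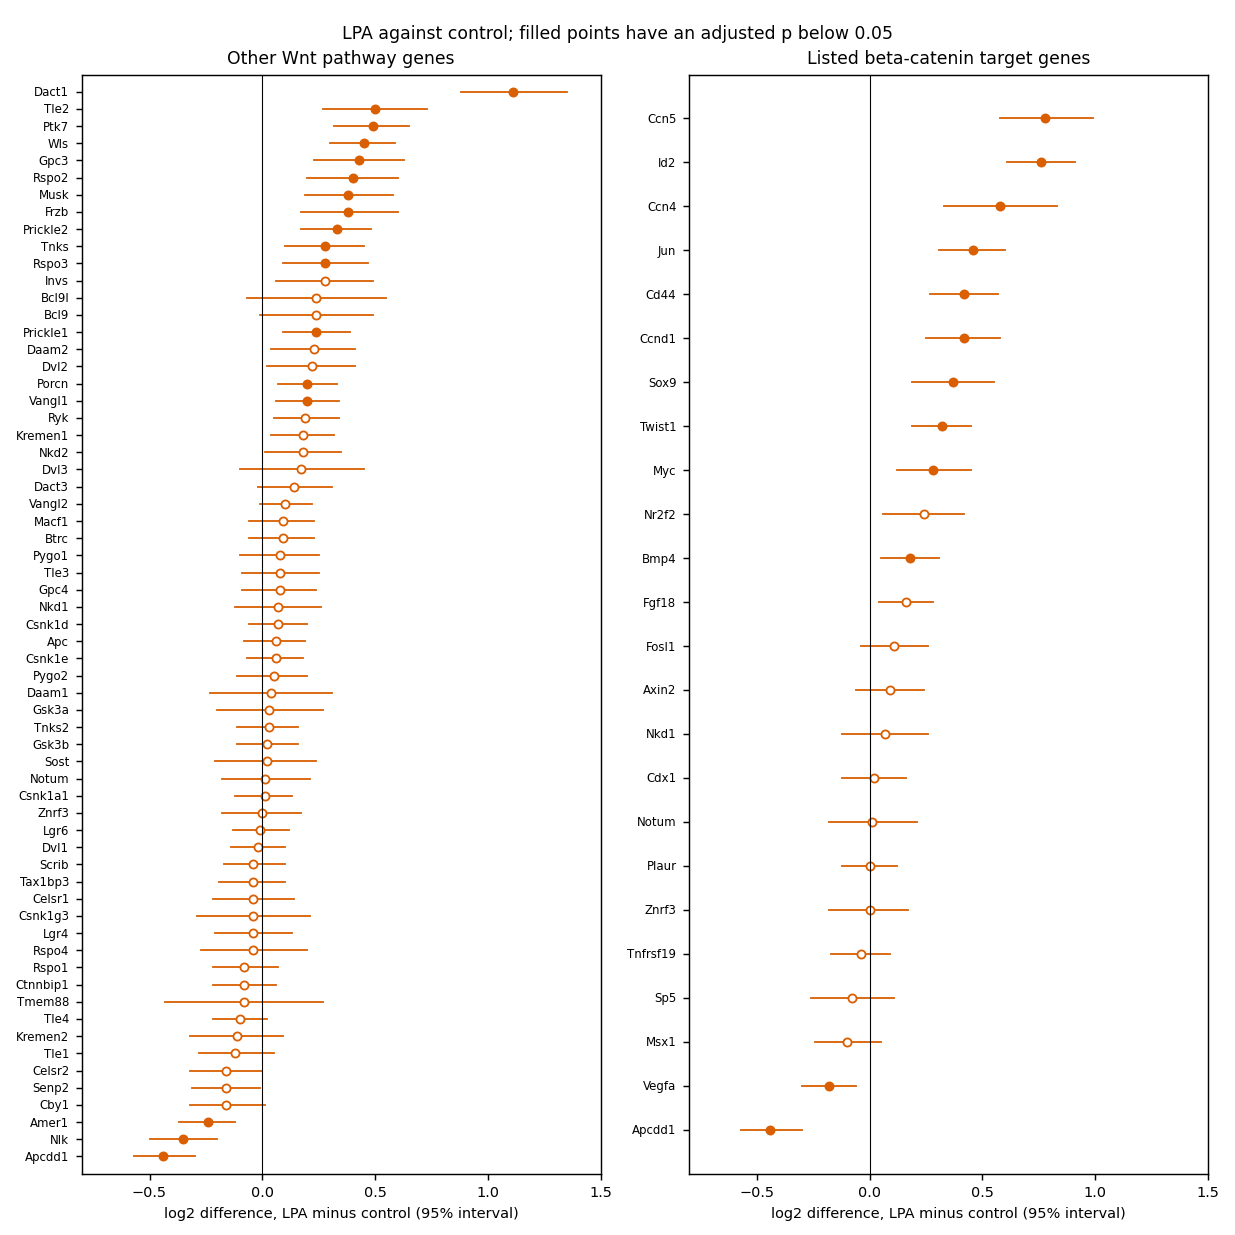
Log2 difference between LPA and control with its 95% interval (horizontal axis) for the tested genes of the other Wnt pathway list and of the β-catenin target list; filled points passed the limma threshold. Dact1 at 1.11 is the farthest to the right, while Axin2, Nkd1, Notum and Znrf3 have open points near 0 and Apcdd1 a filled one at -0.44.

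Markers of several cell types were also called, with LPA and with HA155. Beside the counts below, 12.2% of all genes rose and 10.8% fell with LPA. With HA155 these shares were 0.607% and 0.427%. All 16 tested adipocyte markers fell with LPA, with a median difference of -1.25; their summed intensity was 56000 to 58000 in control, 58500 to 61200 with HA155 and 29300 to 30200 with LPA. Adipoq fell by 1.35, Fabp4 by 0.65, Pparg by 0.46 and Cebpa by 0.58, and Cidec, Slc2a4 and Gpd1, genes of the lipid droplet, of glucose transport and of glycerol metabolism, had differences of -1.88, -1.94 and -1.85. Of the 10 brown fat markers 6 were tested, and with LPA 3 of these fell (Cox7a1, -1.84, Cox8b, -1.85, and Ppargc1a, -0.6) and 1 rose (Zic1, 0.43). Prdm16 (-0.23) and Ebf2 (-0.1), both regulators of brown fat identity, were not called. Ucp1, the uncoupling protein of thermogenic fat, and Dio2 and Elovl3 had means below the filter. Cidea, a lipid droplet protein of brown fat, was below the filter on the mean of all arrays and so not tested, but read 4.97, 5.1 and 4.67 in control, 6.53, 6.15 and 6.49 with HA155, and 4.78, 4.79 and 4.69 with LPA. Its HA155 cultures were all above the filter and well clear of the others. Of 12 tested precursor-cell markers 6 rose and 1 (Gsn, -0.34) fell, among the former Thy1 by 0.76 and Pdgfrb by 0.7, with a summed intensity of 39100 to 40900 in control, 36500 to 38400 with HA155 and 46000 to 48200 with LPA. Skeletal muscle markers rose in 7 of 12 tested, with Myh1 at 0.98, Actc1 at 0.76 and Acta1 at 0.45, Myf5 below the filter and a summed intensity of 1620 to 1710 in control, 1620 to 1770 with HA155 and 2160 to 2490 with LPA. With HA155, 4 adipocyte markers rose, Cidec (0.65), Lep (0.66) and Plin4 (0.34) among them. The brown markers Cox7a1 (1.13) and Cox8b (1.01) and the muscle marker Myh1 (0.64) rose too, and 1 precursor marker, Dlk1, fell by 0.82. Macrophage markers were called in 0 of 6 tested and mesothelial markers in 0 of 3 with LPA; of the Schwann cell markers only Ncam1 (0.74) rose, of 5 tested. Endothelial markers had 1 higher (Tek, 0.37) and 1 lower (Sox18, -0.47) of 7, and smooth muscle markers 2 higher (Acta2, 0.54, and Tagln, 0.46) and 1 lower (Notch3, -0.37) of 6. With so few genes tested and the shares of all genes given above, the macrophage, mesothelial, Schwann and endothelial counts say little about those cell types. The part of these shifts in the rise of Sfrp1, Sfrp2, Dkk3, the Frizzled genes and the other members was not tested.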

How the data were processed

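Total RNA of 9 cultures was hybridised to Affymetrix arrays. The deposited table holds 1 linear intensity per probe set and array, produced by RMA, per the submitters' processing notes (no version stated there). RMA equalises the arrays' distributions and would remove a global shift. Deposited intensities were converted to log2 without an offset. Among 35432 probe sets the annotation gave a single symbol to 21706, and the brightest per gene was used (19858 genes). Genes with a mean under the 40th percentile over probe sets (log2 5.59, intensity 48.2) were left out, leaving 13335.

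Group means were compared using limma 3.58.1 under R 4.3.3 (lmFit, eBayes; 9 arrays in 3 groups, 6 residual degrees of freedom, two-sided, Benjamini-Hochberg at 0.05). The script was tested on simulated data. With 3 arrays against 3 an exact test of 1 gene cannot go below p = 0.1. No batch is named in the labels, so batch and group cannot be told apart.

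Members and lists were chosen with earlier results of these data known. All members are named, those called with all 9 values; of the pathway and target lists, the called genes up to the 12 of smallest p; of each marker list, the 3 of smallest p, the undetected defining markers and a fixed set of adipocyte genes. The uncalled targets named (Nkd1, Notum, Nr2f2, Fgf18, Tnfrsf19, Sp5, Znrf3) were chosen after their values were seen. So were the uncalled brown markers and the promoters printed. Alternatives covered the filter, probe set choice, offset, centring, variance model, array weights, arrays fitted and each array left out. Promoter windows are RefSeq's (GRCm38.p6); the build of the array's design was not used.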

Additional observations from a re-analysis of the deposited data

How the results depend on the processing

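Over 18 alternatives, 9 of them leaving out 1 array, 12 of the 13 members called for LPA against control kept the call in every alternative that tested them, all but Fzd5, and 0 member calls reversed. For LPA against HA155 this held for 11 of 17; besides left-out arrays, centring on the array medians ended the calls of Ctnnb1 (adjusted p = 0.104), Ror2 (0.0550) and Wnt5a (0.0513), and fitting only the arrays compared those of Tcf7l1 (0.0641) and Ctnnb1 (0.0659). Ctnnb1 was lost as well with no filter (0.0747), the 20th percentile filter (0.0629) and array weights (0.0718). The members higher than control numbered 12 to 14 when an array was left out and 12 to 15 otherwise, and those higher than HA155 12 to 16 and 14 to 17. The members lower than control numbered 0 to 1 when an array was left out, the 1 being Wnt3a without control replicate 1. For HA155 against control, 0 to 2 members were called when an array was left out (2 without LPA replicate 8), 2 with array weights (Fzd8 at -0.24, adjusted p = 0.0424, and Sfrp4 at 0.62, 0.00825) and 1 when only the arrays compared were fitted (Tcf7l1 at -0.28, 0.0378). Array weights also called 1 member lower with LPA than with HA155 (Fzd3 at -0.21, 0.0399), and moved the counts of all genes higher and lower with HA155 from 81 and 57 to 199 and 139. Fzd5 lost its call against control in addition with no intensity filter (adjusted p = 0.0623), the 20th percentile filter (0.0516), array weights (0.139) and only the arrays compared (0.0813). The other Wnt pathway genes called with LPA numbered 12 to 19 against 17, and the β-catenin targets 9 to 13 against 12. No paired analysis was possible because the subject numbers differ between the groups. Levels near the filter are close to background, and small differences of dim genes, ligands and Axin2 among them, were not detectable with 3 arrays a group.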
